A study of Homo sapiens with 20 samples.

Results

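HIF1A binding in RKO cells, an established human colon carcinoma line, was compared between hypoxia and normoxia by ChIP-seq, which pulls down chromatin with an antibody to HIF1A and sequences the DNA bound to it. The comparison covered 5 of the 20 samples of the series and 2 of its 8 lists of binding sites (peaks), holding 11263 of 26484 peaks. The 2 hypoxia samples came from cells kept in 1% O2 for 24 h, the 2 normoxia samples from cells kept in normoxia for the same 24 h, and a single input sample, chromatin that saw no antibody, served both. The authors merged the 2 replicates of a condition before they called peaks, so each condition has 1 list and no value below carries a replicate error. A peak was placed in 1 of 3 classes by overlap of at least 1 bp between the lists, which gave 9073 peaks called in hypoxia only, 98 pairs of peaks called in both, and 1994 peaks called in normoxia only. The title and cell line fields of the input sample name RKO while its description names A549 and its source name HCT116, and both lists were called against an input named for RKO in their headers. Peak lists hold no expression values, so the line could not be checked by its marker genes.

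HIF1A is the oxygen-regulated subunit of the HIF1 transcription factor. In the presence of oxygen, prolyl hydroxylases of the EGLN family modify it and the VHL ubiquitin ligase marks it for degradation, whereas in low oxygen it accumulates, pairs with ARNT and binds hypoxia response elements, whose core reads ACGTG or GCGTG. Its known targets in cancer cells include genes of glycolysis, lactate export, oxygen sensing, mitophagy, collagen modification and blood vessel growth.

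The sequences below lie under peaks picked from the 6 strongest of each class. They were taken from the GRCh37 genome and read on the plus strand. Each ACGTG or GCGTG core, on either strand, is in capitals (CACGT and CACGC are the same cores on the minus strand). For some peaks only 30 bases around the core nearest the peak centre are given, and the others are given at full width. The first 6 were called in hypoxia only.
SCIRT, chr6:44041152-44041311: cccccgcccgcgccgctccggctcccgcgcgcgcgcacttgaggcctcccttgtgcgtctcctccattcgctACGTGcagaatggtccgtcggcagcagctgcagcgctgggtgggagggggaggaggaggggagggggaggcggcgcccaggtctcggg
GPI, chr19:34850163-34850322: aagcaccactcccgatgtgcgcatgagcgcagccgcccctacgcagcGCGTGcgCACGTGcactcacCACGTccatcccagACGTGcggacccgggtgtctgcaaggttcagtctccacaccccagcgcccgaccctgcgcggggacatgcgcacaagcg
PGAM1 and RRP12, chr10:99185766-99185795: ctccGCGTGcttACGTGcgctccgtgactg
SLC16A3, chr17:80188907-80189066: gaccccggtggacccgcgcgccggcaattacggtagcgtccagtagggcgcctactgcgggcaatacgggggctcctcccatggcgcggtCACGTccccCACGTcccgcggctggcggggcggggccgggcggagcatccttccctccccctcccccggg
LDHA, chr11:18416025-18416054: cgtgggttcccgCACGTccgccggcccccc
ENO1, chr1:8939061-8939090: tggcccggggcgGCGTGgcgggcatgagag

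The next 4 were called in both conditions and are a selection from the 6 strongest of that class, not all of which hold a core.
FAM174B, chr15:93352366-93352525: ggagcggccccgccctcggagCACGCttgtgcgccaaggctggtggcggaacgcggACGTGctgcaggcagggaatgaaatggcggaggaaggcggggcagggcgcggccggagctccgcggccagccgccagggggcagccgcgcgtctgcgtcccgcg
ANKRD37, chr4:186317600-186317629: cactaccgggagACGTGtcaaactcagcgc
NARF, chr17:80416064-80416093: tccgccgagcctACGTGacacgacgtcaag
RGS4, chr1:163044723-163044752: tctgttggccagCACGTtctccagactcta

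The last 2 were called in normoxia only and are a selection from the 6 strongest of that class. The first of them holds no core, and neither do some of those not shown.
SHANK1, chr19:51198464-51198599: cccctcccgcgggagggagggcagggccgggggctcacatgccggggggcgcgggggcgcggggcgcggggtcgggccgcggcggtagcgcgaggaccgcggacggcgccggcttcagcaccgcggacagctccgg
DYNLT2B, chr3:196045002-196045031: acactccgatggACGTGgccatgccggggc

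The hypoxia list was 4.38 times as long as the normoxia list, with 9171 peaks against 2092. The merged hypoxia libraries held 66.9 M tags (positions of mapped reads, 1 M being 1e+06) and the normoxia libraries 45.1 M, 1.48 times fewer. Peaks took 0.350% of the hypoxia tags and 0.0833% of the normoxia tags, a ratio of 4.21. The deeper library also had the wider peak window, 160 bp against 136 bp, and the higher minimum of tags for a candidate peak, 20 against 16. Of the candidate peaks, the comparison with the input removed 72.0% of 36624 in hypoxia and 66.1% of 6497 in normoxia. Whether the difference in depth adds to the difference in the number of peaks was not tested. With peaks held to a fold of at least 6 over the surrounding 10000 bp in both lists, the ratio fell to 2.57.

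The lists overlapped little. Only 1.07% of the hypoxia peaks (95% Wilson interval 0.878% to 1.30%) and 4.68% of the normoxia peaks (3.86% to 5.68%) had a partner in the other list. Intervals of this kind cover counting error only. Strong peaks were shared more often than the lists as a whole: 12 of the 50 strongest hypoxia peaks (24.0%, interval 14.3% to 37.4%) and 29 of the 50 strongest normoxia peaks (58.0%, interval 44.2% to 70.6%) were in both. A locus without a call is not a locus without tags, since a call needs a set number of tags and a set excess over the input and the surrounding region. The lists were cut by these thresholds before they were deposited, so the normalized tag count of a hypoxia peak in the normoxia library is not known unless normoxia called it too.

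Normalized tag count, the number of tags in the peak window per 10 M mapped tags, is the measure of peak strength. Peaks called in hypoxia only had a median of 3.29 (5% to 95% range 2.69 to 6.73, highest 73.5), which stands on a median of 22 tags. Peaks called in normoxia only had a median of 3.77 (3.10 to 4.66, highest 13.5) on 17 tags. The shared peaks reached 6.58 (3.14 to 32.7, highest 71.3) in the hypoxia list and 4.88 (3.52 to 21.7, highest 62.5) in the normoxia list. Of the peaks of 1 condition alone, 186 in hypoxia (2.05%) and 4 in normoxia (0.201%) had 10 or more tags per 10 M. The body of both lists thus lay close to the calling threshold, which per 10 M tags was higher in normoxia. The conditions parted in the upper tail, which held far more hypoxia peaks. At the edge of the classes, the shared pair with the least overlap (2 bp, near CDC42EP1 on chromosome 22) had 4.19 in hypoxia and 3.99 in normoxia. The nearest pair that missed the overlap (centres 153 bp apart, near MARCHF5 on chromosome 10) had 2.54 and 3.33.

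**Figure D1:**
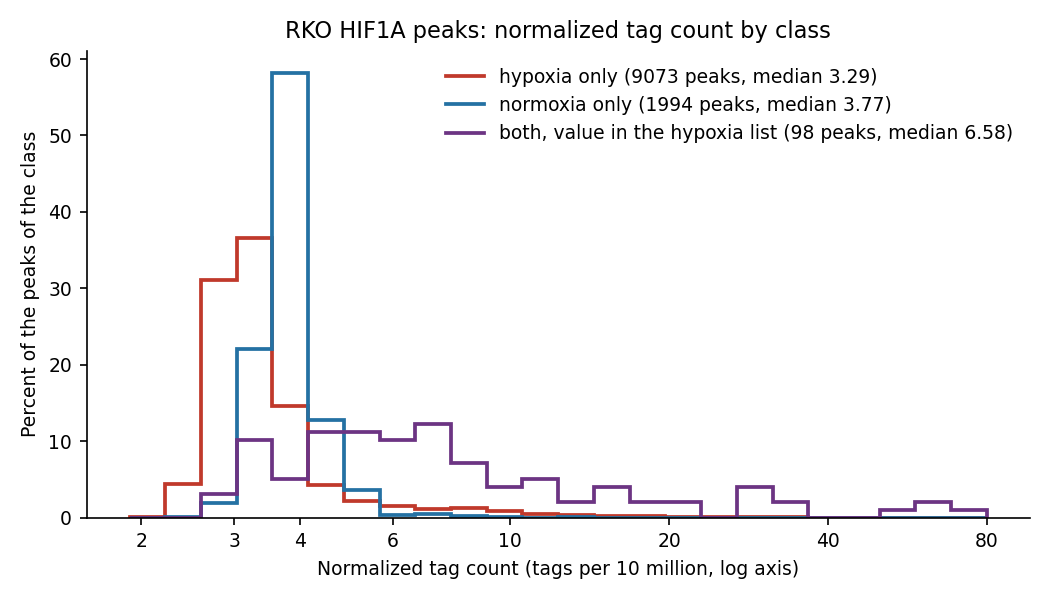
Distribution of normalized tag count (tags per 10 M, log axis) over the RKO peaks called in hypoxia only, in normoxia only and in both, as percent of the peaks of each class. The medians are 3.29, 3.77 and 6.58, and the line for hypoxia only runs on to 73.5 while that for normoxia only ends at 13.5.

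The strongest peaks called in hypoxia only lay at glycolytic genes, at a lactate exporter and at a long noncoding RNA, and all 6 held a core within 12.5 bp of the peak centre. The first had 73.5 tags per 10 M in a noncoding exon of SCIRT on chromosome 6 (44041151 to 44041311), and the nearest normoxia peak was 181417 bp away. The next had 62.9 on chromosome 19 (34850162 to 34850322), 143 bp from the start of GPI, which encodes glucose-6-phosphate isomerase. A peak of 61.7 on chromosome 10 (99185712 to 99185872) lay near the starts of RRP12, a ribosome biogenesis factor, and PGAM1, a phosphoglycerate mutase, at 41 bp and 156 bp from them.

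SLC16A3, the lactate exporter MCT4, had 55.5 on chromosome 17 (80188906 to 80189066), 13176 bp from the outermost annotated start of the gene but 1122 bp from the start of 1 of its transcripts. LDHA, the lactate dehydrogenase subunit that turns pyruvate into lactate, had 47.7 on chromosome 11 (18415957 to 18416117), 70 bp from its start. ENO1, an enolase of glycolysis, had 42.2 on chromosome 1 (8939004 to 8939164) in its 5′ UTR. Each of these 6 loci was also in the hypoxia lists of the 3 other lines of the series, HCT116 (colon carcinoma), A549 and H460 (both lung cancer). Their signal stood 22.4 to 116 times over the input and 34.4 to 78.0 times over the surrounding region, and for 5 of them no normoxia peak was called within 100000 bp, the exception being LDHA.

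Genes were read through 16 lists of 210 genes, as the share with a hypoxia peak centre within 2500 bp of the gene's outermost 5′ end. Of the 210, 56 (26.7%) had such a hypoxia peak and 8 (3.81%) a normoxia peak. Over all 20136 protein-coding gene symbols the shares were 8.73% (1757 genes) and 1.05% (212 genes). The lists include known HIF1A targets and were chosen with earlier results of these data known, so the higher share in the lists describes the choice as well as the binding. Of all protein-coding genes, 1678 had a hypoxia peak without a normoxia peak, 133 a normoxia peak without a hypoxia peak, and 79 had one of each, 51 of them in a shared pair.

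Glycolysis was the most fully covered group. Of 20 glycolytic enzymes, 11 had a hypoxia peak. The strongest peak of each of the 11 was called in hypoxia only, held a core and was in the list of at least 2 other lines. GPI (62.9), PGAM1 (61.7) and LDHA (47.7) led, and the values of the others fell between 9.57 at PGM1, which feeds glucose from glycogen into glycolysis, and 42.2 at ENO1. Counting every annotated transcript start added 5 genes. Among them, named here after their values were seen, were PFKFB4 (35.3) and PFKFB3 (21.2), which make the activator of phosphofructokinase. PKM (20.9), a pyruvate kinase, and PGK1 (20.5), a phosphoglycerate kinase, were others. The PGK1 peak was called in both conditions, with 12.6 in normoxia.

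Of 8 glucose and lactate transporters, SLC2A1 (18.5), the glucose transporter GLUT1, and SLC16A1 (6.58), the lactate transporter MCT1, had hypoxia peaks by outermost start. Counting any transcript start added SLC16A3 (55.5) and the fructose transporter SLC2A5 (9.27). The list of pyruvate dehydrogenase kinases and mitochondrial subunit switches gave 3 of 10. PDK1 (39.9), the kinase that switches off pyruvate dehydrogenase, and LONP1 (14.6), a mitochondrial protease, had a core, and MXI1 (3.14), a MYC antagonist, did not.

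Enzymes that use oxygen as a substrate were among the genes of 3 lists, which also hold genes of other kinds. Of these lists, the demethylases and other oxygenases had the most genes with a peak. In oxygen sensing, 2 of 10 genes had a hypoxia peak: EGLN1 (28), the main HIF prolyl hydroxylase, and EGLN2 (4.78). Of 20 histone demethylases and other oxygenases, 10 had one, led by KDM3A (34.1) and KDM4B (21.2), which remove methyl groups from histone H3 lysine 9, and ALKBH5 (14.6), an RNA demethylase. P4HA1 (30.0) and P4HB (8.82), subunits of the collagen prolyl hydroxylase, were the 2 of 12 genes of collagen modification.

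Mitophagy, glycogen and iron genes each had a strong locus. In mitophagy and hypoxic cell death, BNIP3L (33.9), a mitophagy receptor, HK2 (19.4), a hexokinase, and FAM162A (17.5) made up 3 of 10. In glycogen metabolism, GBE1 (29.1), the branching enzyme, PPP1R3E (14.9), a phosphatase subunit, and GYS1 (7.77), glycogen synthase, made up 3 of 13. In iron and heme, TFRC (18.2), the transferrin receptor, FTL (7.18), ferritin light chain, and SLC11A2 (3.59), an iron transporter, made up 3 of 13, and the FTL peak held no core.

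In the remaining lists most peaks were weak. Of 14 mTORC1 restraint genes 1 (7.14%) had a hypoxia peak, DDIT4 (12.6), against 8.73% of all protein-coding genes. A stronger hypoxia peak of 21.5 lay 12885 bp from the start of DDIT4. Of 12 circadian genes 5 did, with BHLHE40 (13.8), PER2 (7.62) and NR1D2 (5.23) the strongest. MAX (7.18), MLX (5.38) and MNT (3.89) were the 3 of 12 in the network around MYC. Angiogenic and secreted factors gave 3 of 18, among them VEGFA (6.88) and ANGPTL4 (6.43), and carbonic anhydrases and pH regulators gave CA9 (4.78) and SLC4A7 (2.99), 2 of 8. Of 16 TGF-beta receptors and SMADs, SMAD7 (3.44) and SMAD6 (3.29) had a peak near the calling threshold. Of 15 AP-1 and immediate early genes, IER3 (6.88) and MAFF (6.73) had a hypoxia peak. This low count rests on the distance allowed. With the limit widened to 10000 bp it rose to 8, while the total over all lists rose from 56 to 85. A shared peak in the 3′ UTR of JUN, with 9.12 in hypoxia and 6.21 in normoxia, lay 3016 bp from the start of JUN.

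The 8 list members with a normoxia peak by outermost start had low normoxia values, between 3.33 and 5.99. IER3, an early response gene, was the only 1 of them whose normoxia peak was shared, with 5.99 in normoxia and 6.88 in hypoxia and a core in the normoxia window but not in the hypoxia window. At LDHA the normoxia peak (3.55) lay 1881 bp from the hypoxia peak (47.7). FTL had 4.21 in normoxia and a hypoxia peak of 7.18, whose centres were 155 bp apart. MAX (3.33) and MLX (3.77) also had a hypoxia peak elsewhere within 2500 bp. PKM (3.33), DEPTOR (3.33), an mTOR inhibitor, and FOS (3.99), an AP-1 subunit, had none by outermost start. Outside this count, PGK1 had a shared peak at another transcript start, with 20.5 in hypoxia and 12.6 in normoxia.

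**Figure D2:**
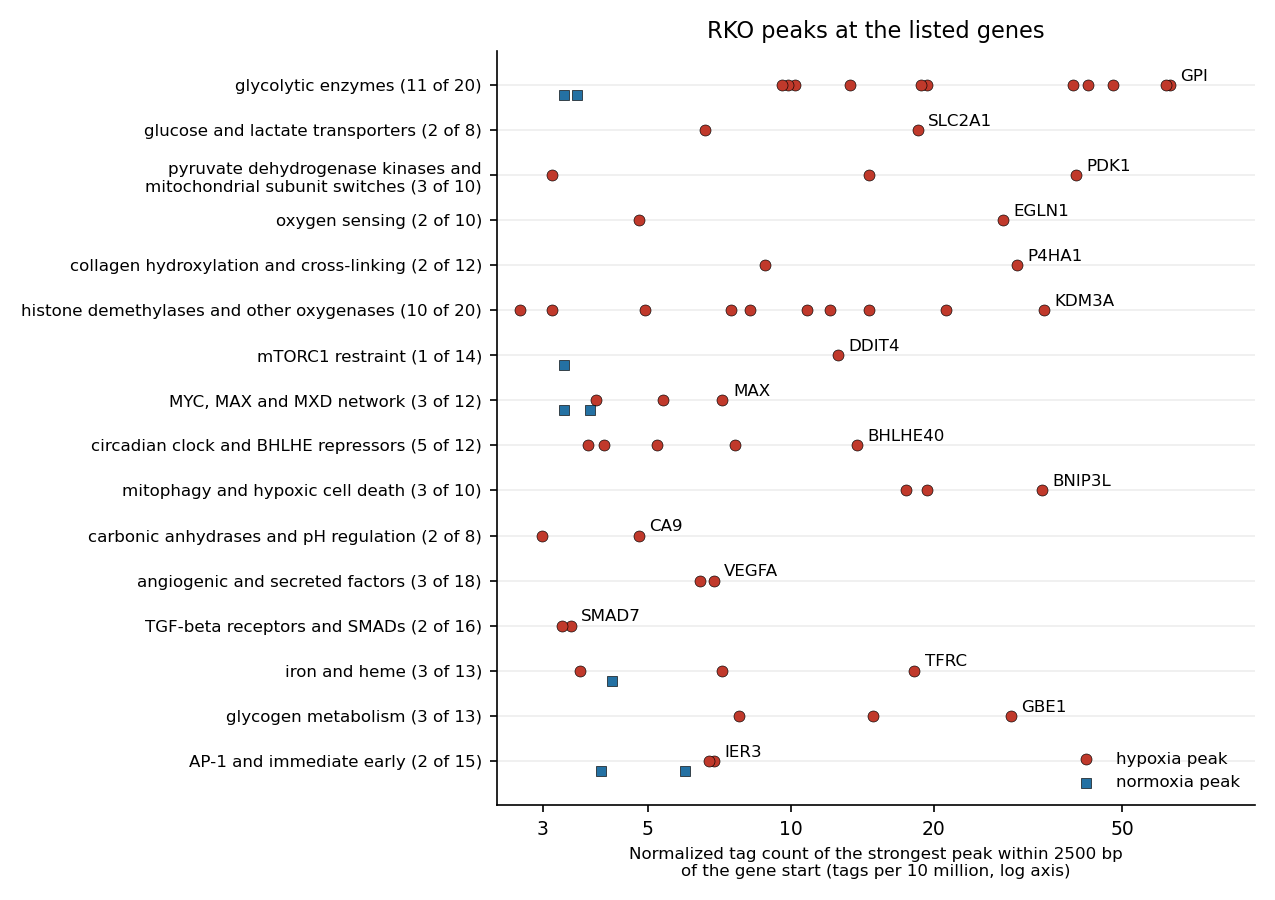
Normalized tag count (tags per 10 M, log axis) of the strongest hypoxia peak (red circles) and normoxia peak (blue squares) within 2500 bp of the outermost start of each gene of the 16 lists, with the number of genes that have a hypoxia peak (1 angiogenic gene is counted but not drawn). The hypoxia values reach 62.9 at GPI, and the 8 normoxia values stay between 3.33 and 5.99.

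For the 98 shared peaks the strength in both conditions was known. The median log2 ratio of hypoxia over normoxia was 0.22 on the scale of tags per 10 M (quartiles -0.04 and 0.55), with 72 of 98 higher in hypoxia. Per bp of peak window, which takes out the wider hypoxia window, the median was -0.02 with 48 of 98 higher, so the direction of the typical shared peak rests on the window. An exact conditional binomial test of each peak's tags against the library totals, two-sided and Benjamini-Hochberg adjusted over the 98, called 14 higher in hypoxia (14.3%) and 0 lower (0%). With the window widths included it called 9 higher (9.18%) and 1 lower (1.02%). These tests compare 2 merged libraries and say nothing of the spread between cultures.

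Some of the strongest shared peaks had clearly higher values in hypoxia. FAM174B, which encodes a membrane protein, had 71.3 in hypoxia and 30.8 in normoxia in its intron on chromosome 15 (93352365 to 93352525), a log2 ratio of 1.21 (adjusted p = 9.13e-19, exact binomial test). ANKRD37, a known HIF1A target, had 62.6 and 15.7 on chromosome 4 (186317551 to 186317711), a log2 ratio of 1.99 (adjusted p = 2.2e-33, exact binomial test). NARF had 53.8 and 21.5 on chromosome 17 (80416015 to 80416175), a log2 ratio of 1.32 (adjusted p = 1.45e-16, exact binomial test). All 3 held a core within 21.5 bp of the centre and were in the hypoxia lists of the 3 other lines.

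Other strong shared peaks had near equal values. The peak 32 bp from the 3′ end of FOSL1, an AP-1 subunit, and 1344 bp from the start of CCDC85B had 61.4 in hypoxia and 62.5 in normoxia on chromosome 11 (65659408 to 65659568), the highest normoxia value of the list. The peak in the 3′ UTR of RGS4, a regulator of G protein signaling, had 32.9 and 31.3. Neither passed the test (adjusted p = 0.941 and 0.922, exact binomial test), and RGS4 changed sign per bp. Their fold over the surrounding region was 12.2 and 13.02, against 43.0 to 74.5 at FAM174B, ANKRD37 and NARF.

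Of the shared peaks with at least 40 tags over both lists, the largest ratios were at ZNF292, BECN2, VGLL4 and ANKRD37. An intron of ZNF292, a zinc finger gene, had 28 in hypoxia and 5.54 in normoxia, a log2 ratio of 2.33 (2.10 per bp). The intergenic peak 7111 bp from BECN2 had 17.8 and 3.77, a log2 ratio of 2.24 (2.00 per bp), and was in no other line's hypoxia list. An intron of VGLL4, a cofactor of TEAD factors, had 27.8 and 5.99, a log2 ratio of 2.22 (1.98 per bp). All 4 passed the test on either scale.

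The lowest ratios were at B3GALT4, H2BC5, PFDN2 and USP31. The start of B3GALT4, a galactosyltransferase gene beside the ribosomal protein gene RPS18, had 6.58 in hypoxia and 11.3 in normoxia, a log2 ratio of -0.78 (adjusted p = 0.0573, exact binomial test). Per bp it was -1.02 (adjusted p = 0.00828, exact binomial test), which made it the only shared peak called lower. The histone gene H2BC5 (3.14 and 5.10), PFDN2 (2.99 and 4.66) and USP31 (3.89 and 5.54) had log2 ratios of -0.70, -0.64 and -0.51 and did not pass on either scale.

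Neither the core nor the other lines were used to define the shared class. The 53 shared peaks with a core had a median log2 ratio of 0.33 (0.09 per bp) and 13 calls, and the 45 without a core had 0.14 (-0.09 per bp) and 1 call. The 41 in another line's hypoxia list had a median of 0.29 (0.06 per bp) and 13 calls, and the 57 in none had 0.17 (-0.07 per bp) and 1 call. The 12 shared peaks found in the hypoxia lists of all 3 other lines had a median log2 ratio of 1.02 (0.79 per bp), and 8 of them were called higher. The 34 with no core and in no other line's hypoxia list had a median of 0.16 (-0.08 per bp), and 0 of them were called higher. Against these, 14.3% of all shared peaks were called. The 12 were also stronger, with a median normalized tag count of 17.5 in hypoxia and 6.65 in normoxia. For the 34 these medians were 6.205 and 5.21. With and without a core, the hypoxia medians were closer, at 7.18 and 6.28. The hypoxia count enters both the ratio and the test, and the part of peak strength in the calls was not tested. These splits were made with the values known and were not tested. The 14 shared peaks within 2500 bp of a coding gene's 3′ end and away from any start had a median of 0.10 (-0.13 per bp) and gave 0 calls on either scale.

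**Figure D3:**
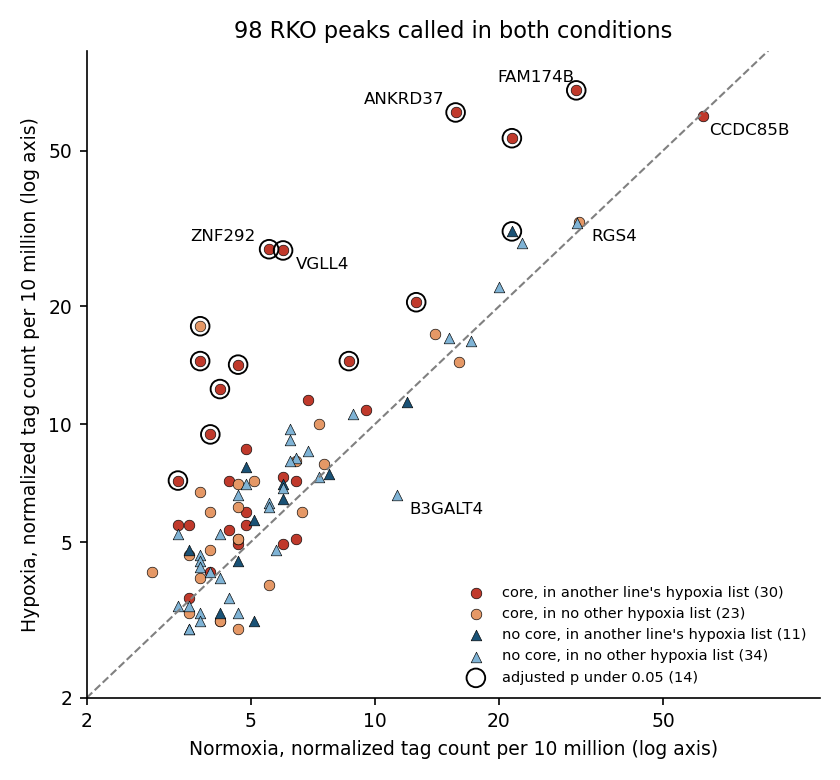
Normalized tag count in normoxia (x) and hypoxia (y), both in tags per 10 M on log axes, of the 98 peaks called in both conditions, by presence of a core and overlap with another line's hypoxia list. Open rings mark the 14 peaks called higher in hypoxia, 12 of which hold a core and are in another line's list, and the peaks near the dashed line of equal values include the 61.4 and 62.5 at CCDC85B.

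The strongest peaks called in normoxia only lay beside hypoxia peaks that they did not overlap. Some of these neighbors were shared peaks, joined to another normoxia peak. The first had 13.5 tags per 10 M in an intron of SHANK1, a synaptic scaffold gene, on chromosome 19 (51198463 to 51198599), and a shared peak with 17 in hypoxia had its centre 273 bp away. The peak in a coding exon of SPATC1 on chromosome 8 had 12.6 in normoxia and a hypoxia neighbor of 11.5 at 185 bp.

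A further 3 followed the same pattern at lower strength. RGMB (3′ UTR, 10.2) had a hypoxia neighbor of 12.6 at 210 bp. ZFP36L1 (24 bp from its 3′ end, 9.54) had a shared peak with 5.08 in hypoxia at 616 bp, and DYNLT2B (5′ UTR, 9.54) a hypoxia neighbor of 8.52 at 177 bp. None of these 5 overlapped a hypoxia peak of another line, and SPATC1 and DYNLT2B held a core. Of the 23 normoxia-only peaks of 6 or more tags per 10 M, 11 (47.8%, interval 29.2% to 67.0%) had a hypoxia peak centre within 500 bp. Of the 1640 below 4, 17 did (1.04%, interval 0.648% to 1.65%). The reverse was rarer but also more frequent among strong peaks. Of the 538 hypoxia-only peaks of 6 or more, 14 (2.60%, interval 1.56% to 4.32%) had a normoxia peak within 500 bp. Of the 7722 below 4, 17 did (0.220%, interval 0.138% to 0.352%). The normoxia list is the shorter one, and the part of list length in this difference was not tested.

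The classes lay at different gene features. Within 2500 bp of an outermost gene start were 55.1% of the shared peaks (interval 45.2% to 64.6%), 19.9% of the hypoxia-only peaks (19.1% to 20.8%) and 9.43% of the normoxia-only peaks (8.22% to 10.8%), against 5.71% of genome positions taken every 2000 bp. The 5′ UTR held 4.51% of hypoxia-only, 7.14% of shared and 1.55% of normoxia-only peak centres, against 0.319% of the genome. The 3′ UTR held 16.3% of the shared peaks (10.3% to 24.9%) but 2.12% of hypoxia-only and 2.41% of normoxia-only peaks, against 1.45% of the genome. Introns held 52.6%, 23.5% and 57.8% of the 3 classes in the same order, and the normoxia-only share was closest to the 55.8% of the genome.

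The HIF core separated the classes further. A core lay in the central 200 bp of 30.3% of hypoxia-only peaks (interval 29.3% to 31.2%), 54.1% of shared peaks (44.2% to 63.6%) and 15.8% of normoxia-only peaks (14.3% to 17.5%), while 16.5% of all genome windows of the same length held it. In windows 2000 bp to either side the shares were 19.4%, 27.6% and 18.3%. ACGTG made up most of the difference: 19.7% of hypoxia-only peaks held it against 8.47% of their flanks, and GCGTG 17.5% against 12.3%. Near gene starts, 71.8% of hypoxia-only peaks held a core against 26.5% of their flanks. Farther away the figures were 19.9% and 17.6%. Normoxia-only peaks near gene starts held it in 32.4% (61 of 188, interval 26.2% to 39.4%) against 25.3% of their flanks, and those farther away in 14.1% against 17.6%. Of genome windows, 25.1% near gene starts and 15.9% farther away held it.

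Other motifs were read in the same windows on both strands. The control core ACGAG or GCGAG, which also holds a CpG, was in 19.5% of hypoxia-only, 37.8% of shared and 12.04% of normoxia-only peaks, against 13.3%, 22.96% and 12.2% of their flanks. The NRF1 motif, bound by a factor of housekeeping promoters, was in 8.16% of the shared peaks (interval 4.19% to 15.3%), 1.28% of hypoxia-only and 0.201% of normoxia-only peaks, against 0.0286% of genome windows. The AP-1 motif TGANTCA was in 8.20%, 10.2% and 7.97% of hypoxia-only, shared and normoxia-only peaks, against 6.21% of genome windows. The motif CACGTG, an E-box that contains the ACGTG core, was in 4.68%, 9.18% and 2.16%, against 1.81% of genome windows. Median GC content was 44% in hypoxia-only 40.5% in normoxia-only windows, 57.25% in shared windows and 40% in genome windows, so base composition moved with the class in the same order as the core, and its part in the core shares was not tested.

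Among hypoxia-only peaks the core became more frequent with strength. Of hypoxia-only peaks below 3 tags per 10 M 18.7% held it, and of those at 3 to 4 25.0%. The share rose to 62.9% at 4 to 6, 92.3% at 6 to 10, 97.99% at 10 to 20, and 100% (37 of 37, interval 90.6% to 100%) at 20 or more. The nearest core also lay closer to the centre, at a median of 37.5 bp in the weakest group and 10.5 bp at 10 to 20. Gene starts followed the same course, from 9.48% of the weakest to 75.7% of the strongest group.

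In the shared peaks the core share went up and down with strength, and its intervals were wide. In normoxia-only peaks it changed little from 3 to 6, and few of them were stronger. From 6 upward both classes held the core less often than hypoxia-only peaks. Of the shared peaks, 38.5% held it at 3 to 4, 60.7% at 4 to 6, 42.9% at 6 to 10 (12 of 28, interval 26.5% to 60.9%), 71.4% at 10 to 20 (10 of 14, interval 45.4% to 88.3%) and 66.7% at 20 or more (8 of 12, interval 39.1% to 86.2%). Of the normoxia-only peaks, 10% held it below 3, 15.8% at 3 to 4, 16.0% at 4 to 6, 21.1% at 6 to 10 (4 of 19, interval 8.51% to 43.3%) and 50% at 10 to 20 (2 of 4, interval 15.0% to 85.0%). The bases beside the core also changed with strength. In hypoxia peaks of 10 or more, 80.1% of the nearest cores read ACGTG rather than GCGTG and 55.7% were followed by C, against 50.1% and 26.5% in hypoxia peaks below 4 and 42.0% and 16.6% in the flanks of hypoxia peaks. Normoxia-only peaks had 45.4% and 17.5%.

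**Figure D4:**
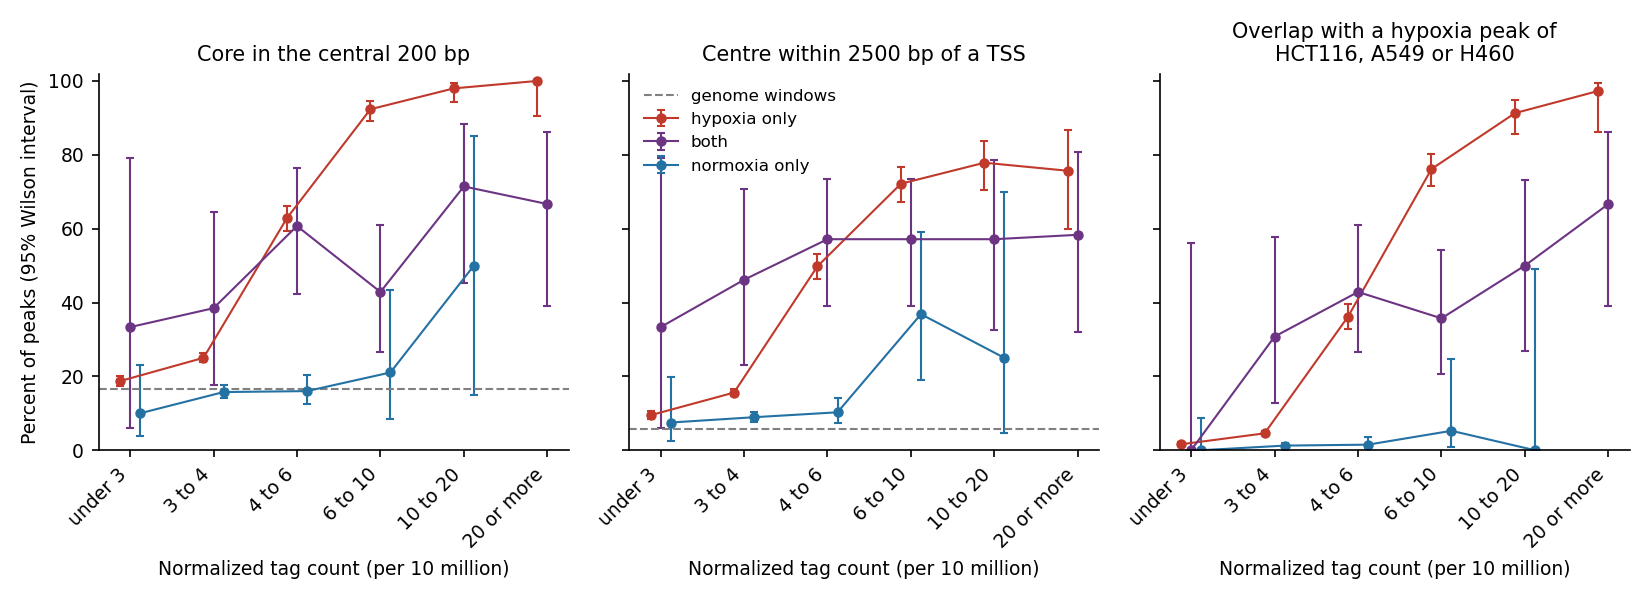
Percent of peaks with a core in the central 200 bp, with a centre within 2500 bp of a gene start, and with an overlapping hypoxia peak in HCT116, A549 or H460, by normalized tag count (tags per 10 M) and class, with 95% Wilson intervals and, in grey for the core and the gene start, the share of genome windows. Hypoxia-only peaks climb from 18.7% to 100% for the core, and normoxia-only peaks stay between 15.8% and 16.0% in the groups of 3 to 4 and 4 to 6 that hold most of them.

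The hypoxia lists of the other lines were not used to define the classes. At least 1 of the 3 other lines had an overlapping hypoxia peak at 41.8% of the shared peaks (interval 32.6% to 51.7%), 10.9% of hypoxia-only peaks (10.3% to 11.6%) and 1.30% of normoxia-only peaks (0.891% to 1.904%). By line, hypoxia-only peaks were found in 6.68% in HCT116, 5.44% in A549 and 6.72% in H460. Per the study's methods, peaks of the 3 other lines needed a higher fold over the input than those of RKO, and that fold differed by line. The shares by line are therefore not on a common scale. Of normoxia-only peaks, 17 were in the hypoxia list of HCT116, 10 in that of H460 and 3 in that of A549, and 0 of 1994 were in all 3, which allows a share of up to 0.192% by the Wilson interval. The normoxia lists of the other lines held 4, 1 and 1 of the 1994 for HCT116, A549 and H460. The share rose with strength: 1.61% of hypoxia-only peaks below 3 and 97.3% of those at 20 or more were in another hypoxia list, with 36 of 37.

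The peaks of 1 condition alone were unevenly spread over the chromosomes, and the unevenness was greater in normoxia. Chromosome 8 held 26.3% of the normoxia-only peaks (524 of 1994) and 12.8% of the hypoxia-only peaks (1159 of 9073), but 7 of the 98 shared peaks. In peaks per Mb, chromosome 8 had 3.67 in normoxia only and 8.11 in hypoxia only, where chromosome 2 had 0.395 and 2.32. Chromosomes 7, 8, 9, 10 and 20 had the most peaks of 1 condition per Mb, in normoxia and in hypoxia, so an excess of such peaks follows from grouping them. Together they held 56.3% of normoxia-only, 40.1% of hypoxia-only and 20.4% of shared peaks, and 21.3% of the genome windows. On chromosome 8 the normoxia-only peaks numbered 2 in each 10 Mb of the first 40 Mb and 54 to 66 in each 10 Mb from 70 to 140 Mb.

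The core was rarer on these chromosomes among hypoxia-only peaks, at 24.3% against 34.3% on all others, and gene starts likewise, at 12.05% against 25.2%. Among normoxia-only peaks the core was at 15.0% against 16.9%, near the genome share on either side. By strength, 6.30% of the hypoxia-only peaks below 3, 17.8% of those at 3 to 4, 15.4% at 4 to 6, 3.69% at 6 to 10, 8.72% at 10 to 20 and 10.8% at 20 or more lay on chromosome 8. Why these chromosomes held more peaks of 1 condition was not tested.

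**Figure D5:**
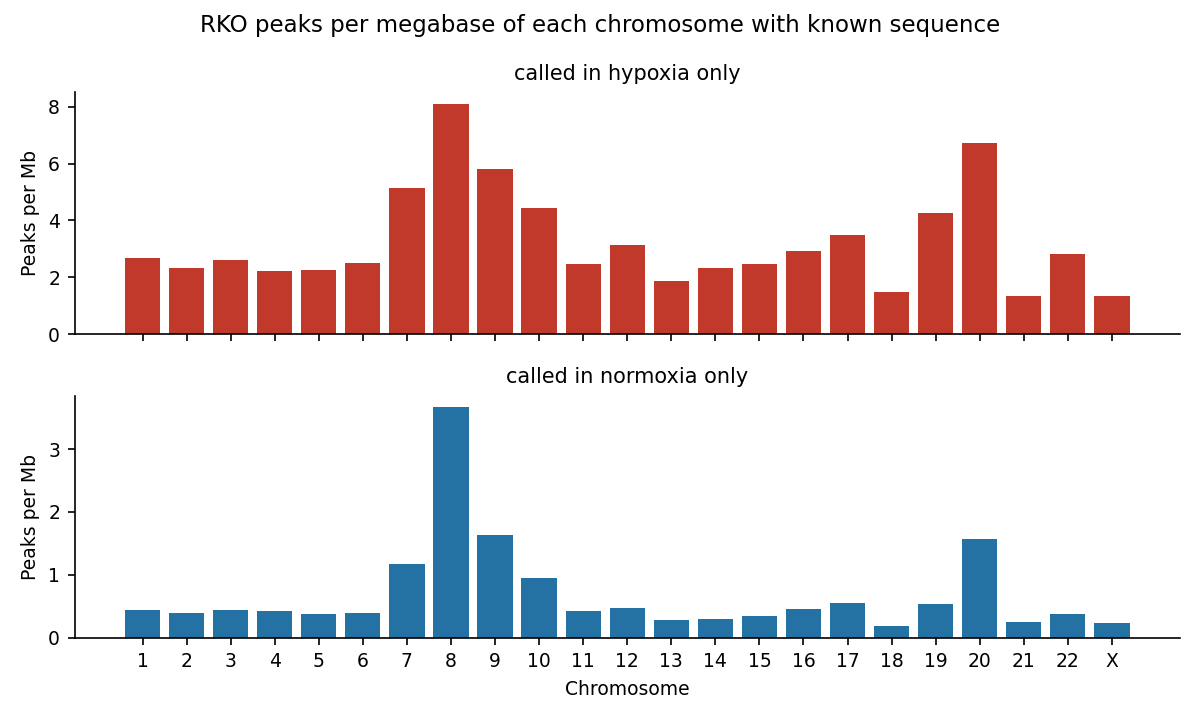
Peaks called in hypoxia only (top) and in normoxia only (bottom) per megabase of known sequence, for chromosomes 1 to 22 and X. Chromosome 8 stands highest in both panels, with 8.11 and 3.67 peaks per Mb, and chromosomes 7, 9, 10 and 20 come next in normoxia.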

How the data were processed

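According to the submitters' processing notes and the study's methods, the authors trimmed adapters, aligned reads to GRCh37 with Bowtie2 2.2.9, kept a mapping quality above 10, marked duplicates with Picard, merged the 2 replicates of a condition and called peaks with HOMER 4.3. Per the file headers, a peak needed a fold of 6 over the input and 3 over the surrounding 10000 bp at a p of 0.001 and a false discovery rate of 0.001. The deposited signal is the normalized tag count per 10 M tags (1 M being 1e+06), the deposited ratio is the fold over the input, the deposited fraction is the focus ratio and the deposited score is the peak caller's own. The last 2 entered no result.

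Peaks were intersected by at least 1 bp, and features came from GENCODE release 44 mapped to GRCh37, with a peak placed by its centre. Cores and motifs were searched in the central 200 bp on both strands. Tags of shared peaks were tested by an exact conditional binomial test (scipy 1.17.1), checked on simulated data. The study describes the 2 replicates of a condition as independent biological ones, and the merged lists do not hold their spread. Whether deposited starts count from 0 or from 1 is not given in the sources used here, so positions may be off by 1 base; printed sequences run from the base after the deposited start.

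The members and gene lists were chosen with earlier results of these data known. Named were the 6 strongest peaks of each class, the 4 highest and 4 lowest ratios per bp among shared peaks with at least 40 tags, the 3 strongest hypoxia peaks of each gene list and every list member with a normoxia peak. Some peaks and genes that this rule names are not reported here. Alternatives changed the overlap, the fold over the surrounding region and over the input, the window, the gene start and the scaling by width.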

Additional observations from a re-analysis of the deposited data

How the results depend on the processing

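No paired analysis was possible because the replicates were merged before peaks were called, and for the same reason no replicate could be left out. With a fold of at least 6 over the surrounding region, the ratio of peak numbers was 2.57, the share of normoxia peaks also called in hypoxia 5.82%, and the hypoxia-only shares 31.6% for gene starts, 47% for the core and 27.0% for another line's hypoxia list. The shared share of normoxia peaks was 3.44% with an overlap of 50% of the narrower peak and 6.79% with centres within 500 bp. Centres within 500 bp also moved the overlap with other lines to 12.1% for hypoxia-only and 2.26% for normoxia-only peaks.

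Per bp of width, the median log2 ratio of the shared peaks reversed to -0.0185, the calls became 9 higher and 1 lower, RGS4 and another strong shared peak reversed to -0.16 each, and B3GALT4 passed at -1.02. Within 1000 bp of a gene start lay 15.2% of hypoxia-only, 41.8% of shared and 5.82% of normoxia-only peaks, and within 2500 bp of any transcript start 28.2%, 70.4% and 17.6%. In a window of 100 bp the core was in 22.01%, 41.8% and 8.43% of the 3 classes, and in the deposited interval in 27.4% of hypoxia-only and 11.4% of normoxia-only peaks. Within 10000 bp of the gene start, 85 listed genes had a hypoxia peak. The causes of these changes were not tested. Depth limits what a missing call says, since the minimum for a candidate was 20 tags in hypoxia and 16 in normoxia.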
